A study of Mus musculus with 3 samples.

Results

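The genes described here are 10 transcription factors of the oligodendrocyte lineage, Olig1, Olig2, Sox8, Sox10, Nkx2-2, Nkx6-2, Myrf, Tcf7l2, St18 and Zfp536. They were taken by symbol from the 30559 genes of the count matrices, and all 10 were found. Single-nucleus RNA was measured in 3 libraries of neurosphere cultures that had differentiated for 15 days in vitro. The neurospheres came from the subventricular zone of newborn C57BL/6 mice with floxed alleles of the genes for CBP (CBPf/f) or p300 (p300f/f), which are lysine acetyltransferases. Per the study's methods, a lentivirus carrying Cre and mCherry removed CBP in the CBP-ablated cultures and p300 in the p300-ablated cultures, and control cultures received a lentivirus with RFP and no Cre. The sample labels name tamoxifen as the treatment of all 3 libraries, and the line of mice behind the control is not stated. Each library was a pool of about 15 cultures whose nuclei were sorted by the fluorescent reporter, so each condition had 1 library, no variation between cultures could be estimated, and no test was made. All intervals are 95% intervals of counting error only.

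Oligodendrocytes arise from oligodendrocyte precursor cells (OPCs), which leave the cell cycle, pass through a committed, premyelinating stage and then make myelin. The basic helix-loop-helix factors Olig1 and Olig2 and the homeodomain factor Nkx2-2 act from the specification of precursors onward, and the SoxE factors Sox8 and Sox10 are carried through the lineage, where Sox10 activates myelin genes directly. Tcf7l2, a TCF/LEF factor at the end of the Wnt pathway, marks the passage out of the precursor stage, and Myrf, a membrane-bound factor that releases its own DNA-binding part, is needed for myelin gene expression. Nkx6-2 is a homeodomain factor of maturing oligodendrocytes. St18 (Myt3) and Zfp536 are zinc finger proteins, and both are also known from other cell types.

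The depth was 16312170 unique molecular identifiers (UMIs) in 4884 control nuclei, 12748336 in 3017 CBP-ablated nuclei and 18876682 in 4648 p300-ablated nuclei, with a median of 3219, 4016 and 3902.5 UMIs per nucleus. Levels are given as CPM, the usual rate of a gene's UMIs among all UMIs of the nuclei named, so that sums of different depth have a common scale. A count of 0 is compatible with up to 3 UMIs, or 0.159 to 0.235 CPM in a whole library. Nuclei were clustered without the 10 factors, and clusters were named from markers. The 3 classes of the lineage were OPC-like (6 of 7 markers, 1056 control, 388 CBP-ablated and 1776 p300-ablated nuclei), committed-like (9 of 9 markers, 392, 608 and 235 nuclei) and oligodendrocyte-like (9 of 9 markers, 161, 487 and 193 nuclei). The libraries differed in their make-up. The lineage held 36.9% of the UMIs of the control library, 56.1% of the CBP-ablated and 49.0% of the p300-ablated library, the oligodendrocyte-like class held 5.21%, 23.2% and 6.29%, and the astrocyte-like cluster had 1278 nuclei in control and none in either ablated library. Pairs of libraries shared 1 to 7 nucleus barcodes.

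The factors lie on 7 chromosomes of GRCm38, and Olig1 and Olig2 are neighbours on chromosome 16 (91269772 to 91271933 and 91225457 to 91228677, both on the + strand). Their genes differ in size and in how much of them is intron, which matters for nuclear RNA counted over exons and introns. Olig1 spans 2.16 kb with no intron. Zfp536 (chromosome 7, 37472135 to 37773641, - strand) spans 301.5 kb, St18 (chromosome 1, 6487231 to 6860940, + strand) 373.7 kb, and Tcf7l2 (chromosome 19, 55741820 to 55933654, + strand) 191.8 kb, with 96.9%, 98.3% and 95.4% intron. Levels of different factors are therefore not compared with each other. Transcripts of the opposite strand overlap Olig1, Sox8, Nkx2-2, Nkx6-2 and Zfp536, and Ppnr lies within Tcf7l2 on its own strand. Whether such overlaps change the counts of these genes was not tested.

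RefSeq promoter windows (GRCm38.p6) were given for 6 of the 10 factors, and for Olig1, Sox10, Myrf and St18 none was used. Windows of 3 factors with different stage patterns are shown, each from its far end toward the transcription start and leaving off bases that GENCODE M21 places in an exon. Olig2 was highest at the precursor stage, Tcf7l2 in committed-like nuclei and Nkx6-2 in oligodendrocyte-like nuclei. Capitals mark matches on either strand to AACAAT (a SOX core), ACAAAG (a SOX and TCF/LEF core), the E-boxes CAGCTG and CAGATG, and the GC box GGGCGG.
Olig2, chr16:91225300-91225456, + strand: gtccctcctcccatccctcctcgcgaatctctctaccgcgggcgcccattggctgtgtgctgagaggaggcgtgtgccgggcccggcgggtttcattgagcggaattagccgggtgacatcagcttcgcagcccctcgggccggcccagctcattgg
Tcf7l2 first start, chr19:55741560-55741809, + strand: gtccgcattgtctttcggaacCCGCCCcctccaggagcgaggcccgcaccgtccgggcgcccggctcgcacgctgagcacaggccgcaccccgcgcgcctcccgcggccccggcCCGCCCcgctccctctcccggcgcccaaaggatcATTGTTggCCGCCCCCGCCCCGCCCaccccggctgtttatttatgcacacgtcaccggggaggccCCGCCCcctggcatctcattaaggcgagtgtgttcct
Tcf7l2 second start, chr19:55895071-55895320, + strand: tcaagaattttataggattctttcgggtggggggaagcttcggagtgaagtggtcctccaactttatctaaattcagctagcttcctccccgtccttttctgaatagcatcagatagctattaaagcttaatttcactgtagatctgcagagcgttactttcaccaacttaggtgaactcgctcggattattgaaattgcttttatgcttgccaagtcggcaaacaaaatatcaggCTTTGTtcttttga
Nkx6-2, chr7:139582798-139583047, - strand: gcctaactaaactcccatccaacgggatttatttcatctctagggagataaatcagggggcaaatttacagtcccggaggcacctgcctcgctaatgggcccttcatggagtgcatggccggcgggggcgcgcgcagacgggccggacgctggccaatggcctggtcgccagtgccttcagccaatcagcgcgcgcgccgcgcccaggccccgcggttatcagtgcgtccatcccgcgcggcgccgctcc
The Olig2 and Nkx6-2 windows held none of these motifs. The first Tcf7l2 window held 1 AACAAT and 6 GGGCGG matches, a pair of the latter overlapping by a base, and the second, inside the gene, held 1 ACAAAG match. Of 32851 windows of 250 bases, 9.42% held AACAAT, 16.5% ACAAAG, 13.0% CAGCTG, 14.4% CAGATG and 32.7% GGGCGG. Cut to the 157 bases nearest the start, the length of the Olig2 window, 5.54%, 10.4%, 8.81%, 9.20% and 29.1% held them. The Olig2 window itself ended 93 bases before its RefSeq start, so its position differs from these, which also kept exon bases. The GC content was 66.9% in the Olig2 window, 72.8% and 40.8% in the Tcf7l2 windows and 65.2% in the Nkx6-2 window, against a median of 52.4%. A match is a description of these letters and not a binding site.

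Among the 3 classes of the lineage, each factor was highest in the same class in all 3 libraries. Olig1 and Olig2 were highest in OPC-like nuclei, Sox8, Sox10, Nkx2-2 and Tcf7l2 in committed-like nuclei, and Myrf, Nkx6-2, St18 and Zfp536 in oligodendrocyte-like nuclei. The clusters were built without these genes, and the levels are given as a description.

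**Figure D1:**
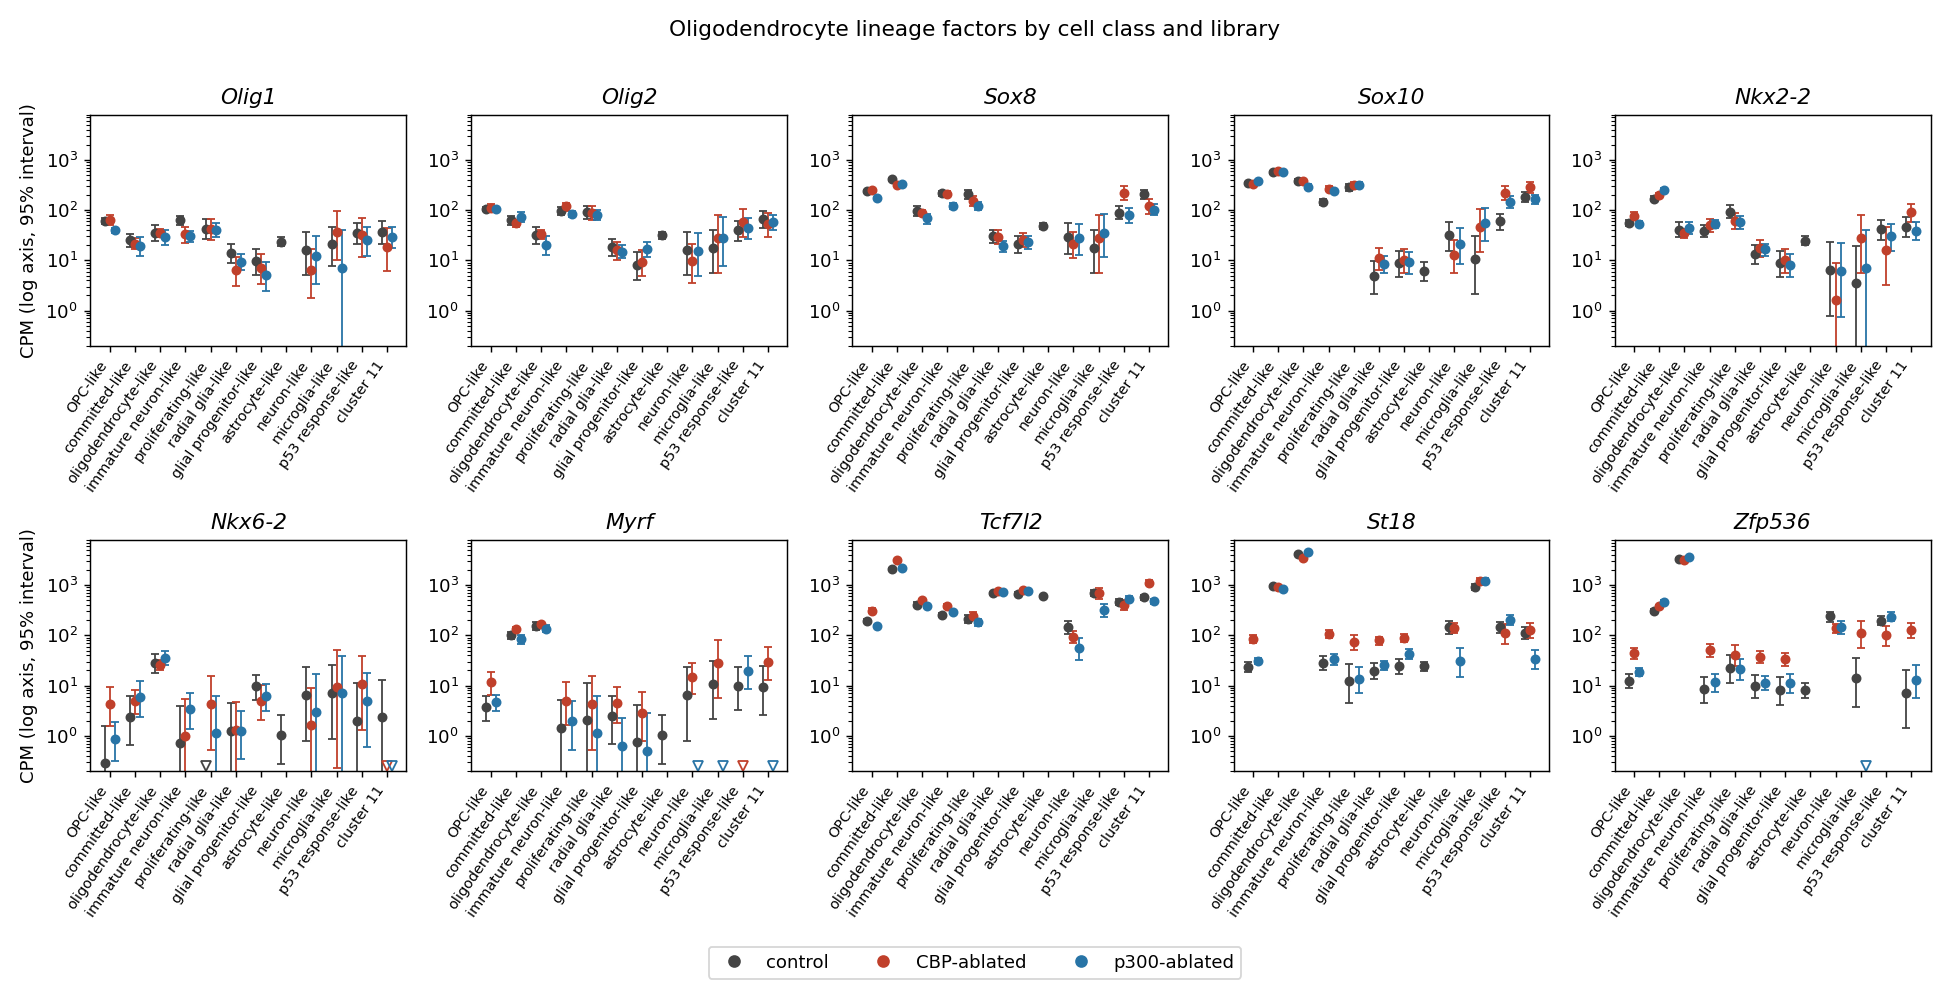
Level of each factor (CPM, log axis) in each cell class of the control (grey), CBP-ablated (red) and p300-ablated (blue) library. Points are sums over the nuclei of a class, bars are 95% Poisson intervals cut at the lower edge of the axis, and open triangles mark classes with no UMI. St18 and Zfp536 lie between 3211 and 4553 CPM in oligodendrocyte-like nuclei, while in the classes of glial precursors they are higher in CBP-ablated than in control nuclei (St18 at 79.2 and 19.8 CPM in radial glia-like nuclei).

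Olig2 was at 105, 111 and 107 CPM in OPC-like nuclei of the control, CBP-ablated and p300-ablated libraries. It was at 62.7, 55.3 and 72.8 CPM in committed-like nuclei and at 31.8, 33.5 and 20.2 CPM in oligodendrocyte-like nuclei. The intervals of the 3 stages did not overlap within any library. Olig1 was at 59.8, 63.9 and 39.9 CPM in OPC-like nuclei and at 25.3, 21.6 and 19.7 CPM in committed-like nuclei. In oligodendrocyte-like nuclei Olig1 was at 35.3, 35.6 and 29.5 CPM, and these intervals overlapped the committed-like ones except in the CBP-ablated library.

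The SoxE factors kept a broader span. Sox10 was at 344, 334 and 380 CPM in OPC-like, 570.5, 614 and 565 CPM in committed-like and 382, 373 and 293 CPM in oligodendrocyte-like nuclei, so the committed-like class was the highest in each library. Sox8 was at 237, 251 and 175 CPM, then 408, 324 and 331 CPM, and then 95.3, 88.4 and 68.3 CPM at the same stages. Sox8 was thus lowest in oligodendrocyte-like nuclei of each library, which was not so for Sox10 in the control and CBP-ablated libraries. Nkx2-2, which represses alternative fates in the ventral neural tube and is needed for timely differentiation of OPCs, was at 55.5, 76.3 and 54.0 CPM in OPC-like, 169, 201 and 251 CPM in committed-like and 41.2, 34.6 and 44.7 CPM in oligodendrocyte-like nuclei.

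Tcf7l2 was high in the committed-like class and lower on either side of it. It went from 192, 312 and 154 CPM in OPC-like nuclei to 2108, 3100.5 and 2246 CPM in committed-like nuclei and back to 408, 511 and 388 CPM in oligodendrocyte-like nuclei. Myrf went from 3.70, 11.6 and 4.64 CPM in OPC-like nuclei to 153, 170 and 137 CPM in oligodendrocyte-like nuclei, with 83.9 to 133 CPM in committed-like nuclei. The OPC-like values of Myrf rest on 13, 16 and 32 UMIs.

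Within the lineage the remaining factors were highest at the last stage. St18 was at 952, 925 and 849 CPM in committed-like and at 4198, 3400 and 4553 CPM in oligodendrocyte-like nuclei. Zfp536 was at 305, 383 and 466 CPM in committed-like and at 3355, 3211 and 3685 CPM in oligodendrocyte-like nuclei. Nkx6-2 had 24, 77 and 42 UMIs in oligodendrocyte-like nuclei, or 28.2, 26.1 and 35.4 CPM, against 1, 6 and 6 UMIs in OPC-like nuclei. Oligodendrocyte-like nuclei held 77.8%, 86.6% and 82.5% of the Zfp536 UMIs of the 3 libraries and 60.8%, 74.8% and 75.7% of the St18 UMIs.

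A finer clustering (resolution 1.2), looked at after the class levels were seen, gave a pair of clusters for each of the 3 classes. It was made anew, so its clusters need not hold the same nuclei as the classes. Committed-like nuclei formed a cluster led by Bmp4 (318 control, 384 CBP-ablated and 197 p300-ablated nuclei) and a cluster with Ddc and Frmd4a among its leading genes (77, 224 and 44 nuclei). The listed 16 myelin genes made up 0.135%, 0.173% and 0.140% of UMIs in the Bmp4 cluster and 0.591%, 0.622% and 0.570% in the Ddc cluster. Tcf7l2 stood at 1375, 2164 and 1509 CPM in the Bmp4 cluster and at 4522, 4423 and 4943 CPM in the Ddc cluster. Nkx2-2 ran the other way, with 198, 285 and 302 CPM in the Bmp4 cluster and 68.2, 82.2 and 33.1 CPM in the Ddc cluster. Sox8 was also higher in the Bmp4 cluster (458, 395 and 358 CPM) than in the Ddc cluster (249, 227 and 215 CPM). Myrf was at 66.6, 78.8 and 48.5 CPM in the Bmp4 cluster and at 209.7, 210.6 and 215 CPM in the Ddc cluster.

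Oligodendrocyte-like nuclei formed a cluster with Mobp among its leading genes (56, 223 and 34 nuclei) and a cluster with Aspa among them (105, 264 and 158 nuclei). Myelin genes made up 1.24%, 1.34% and 1.31% of UMIs in the Mobp cluster and 1.18%, 1.37% and 1.32% in the Aspa cluster, so the myelin share did not order them. Tcf7l2 nevertheless was at 960.1, 966 and 1584 CPM in the Mobp cluster and at 101, 153 and 134 CPM in the Aspa cluster. Myrf was at 194, 209 and 168 CPM in the Mobp cluster and at 130.1, 139 and 128 CPM in the Aspa cluster. Its Mobp values were not separated from those of the committed-like Ddc cluster (209.7, 210.6 and 215 CPM), as the intervals overlapped in each library. St18 and Zfp536 differed less between the Mobp and Aspa clusters, and were higher in the Aspa cluster. St18 was at 4093, 2752 and 3811 CPM in the Mobp cluster and at 4257, 3910 and 4740 CPM in the Aspa cluster. Zfp536 was at 3301, 2841 and 3576 CPM in the Mobp cluster and at 3385, 3501 and 3711 CPM in the Aspa cluster. The intervals did not overlap for St18 in the ablated libraries and for Zfp536 in the CBP-ablated library.

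**Figure D2:**
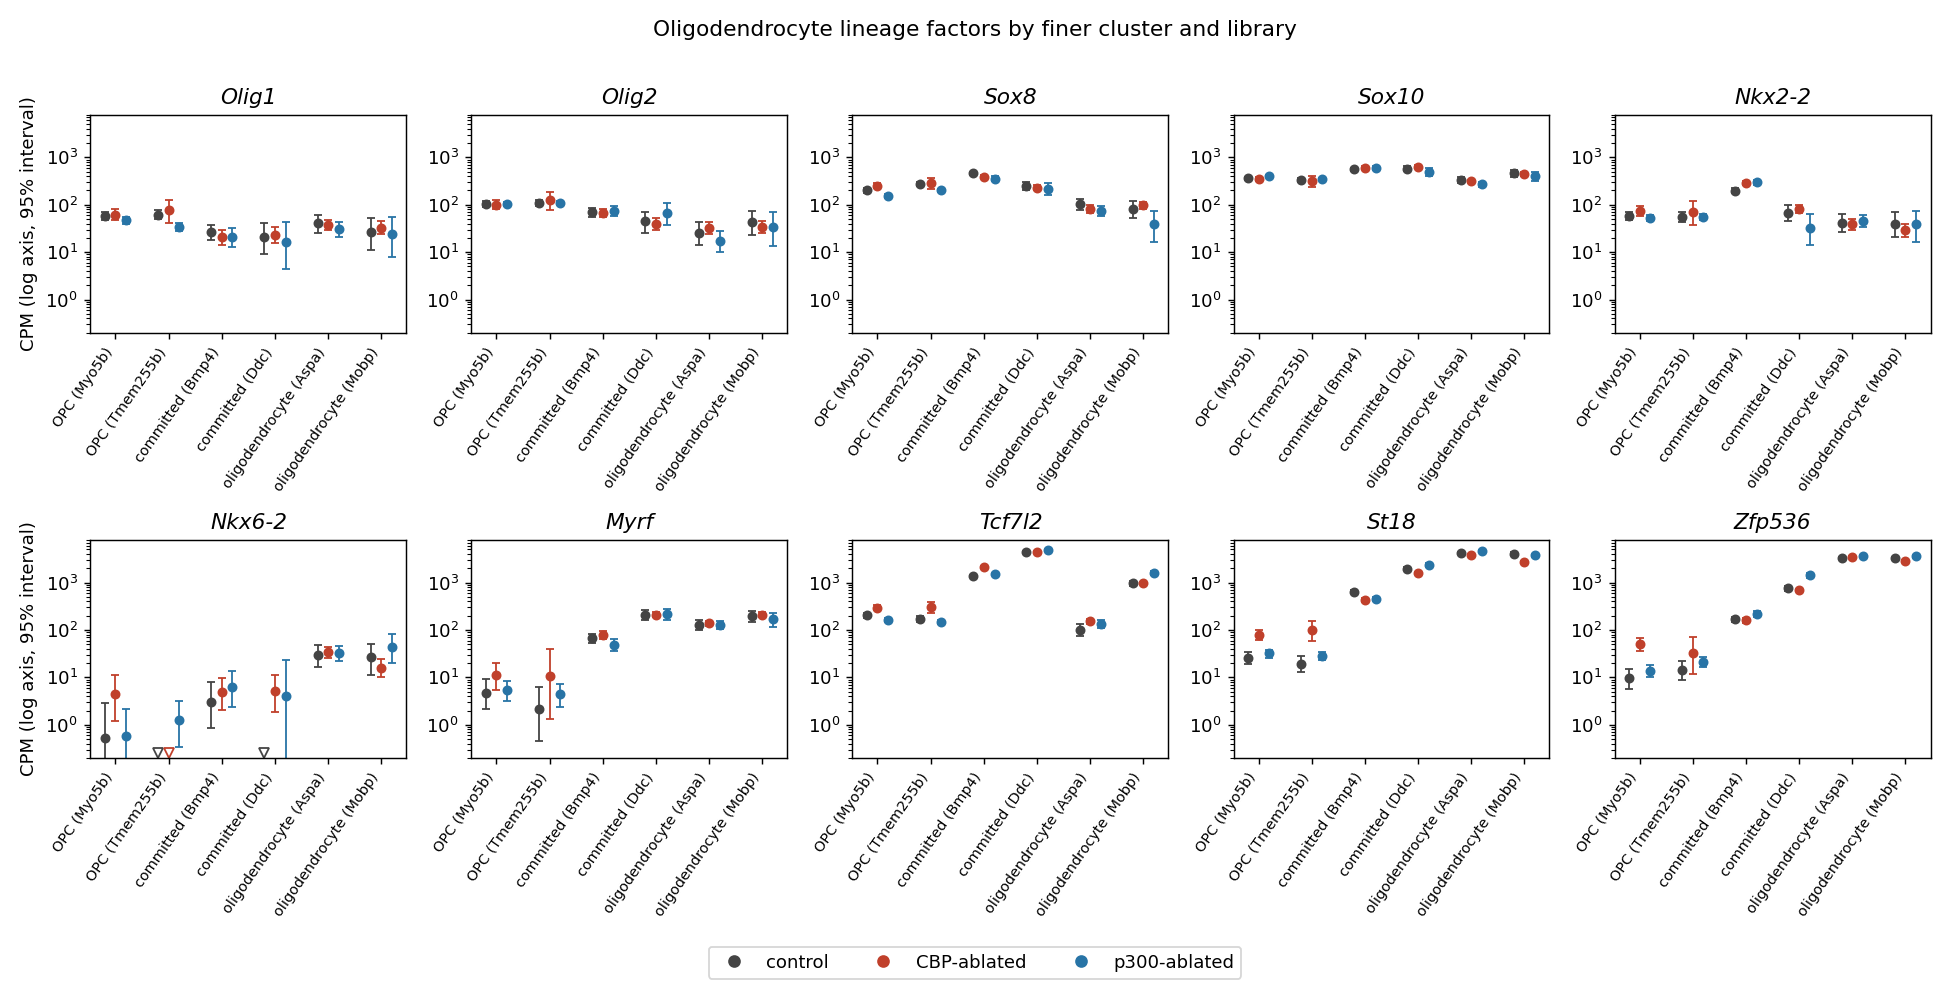
Level of each factor (CPM, log axis) in the 6 finer clusters of the lineage, named by class and a leading gene, in the control (grey), CBP-ablated (red) and p300-ablated (blue) library, with 95% Poisson intervals. Open triangles mark no UMI. Tcf7l2 is at 4423 to 4943 CPM in the Ddc cluster and at 101 to 153 CPM in the Aspa cluster.

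The lineage nuclei were also divided by their myelin share. These are ranges of a score and not cell types, and 265, 94 and 159 of the 5296 lineage nuclei lay within 10% of the cuts at 0.1%, 0.3% and 1%. No lineage nuclei were found at 3% or more. From under 0.1% to 0.1 to 0.3%, 0.3 to 1% and 1 to 3% of myelin UMIs, Tcf7l2 in control went from 309 to 1390, 2492 and 722 CPM. In the CBP-ablated library it went from 591 to 2172, 2927 and 640 CPM, and in the p300-ablated library from 189 to 1129, 2256 and 594 CPM. St18 was higher in each further range, from 74.0 to 644, 2954 and 3997 CPM in control, from 126 to 438, 1843 and 3592 CPM in the CBP-ablated library and from 39.2 to 357, 2899 and 4776 CPM in the p300-ablated library. Myrf reached 163, 186 and 159 CPM at 0.3 to 1% and stood at 166, 177 and 143 CPM at 1 to 3%, with overlapping intervals, so these ranges did not place it last.

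Several factors were not restricted to the lineage. Tcf7l2 had 44.9%, 76.4% and 44.6% of its UMIs in lineage nuclei, against 36.9%, 56.1% and 49.0% of all UMIs. It was at 685, 761 and 723 CPM in radial glia-like nuclei and at 672, 801 and 759 CPM in glial progenitor-like nuclei. Control astrocyte-like nuclei had 601 CPM, and all these values were above the OPC-like level of the same library. St18 was at 923, 1186 and 1214 CPM in microglia-like nuclei, from 263, 129 and 171 UMIs. In the same microglia-like nuclei Zfp536 had 4, 12 and 0 UMIs, so that the level of St18 there was not accompanied by the other factor of oligodendrocyte-like nuclei. Zfp536 was at 238, 138 and 146 CPM in neuron-like nuclei and had 99, 19 and 95 UMIs in p53 response-like nuclei. Nkx6-2 had 52.7%, 85.8% and 66.3% of its UMIs in the lineage, and 13, 7 and 12 UMIs in glial progenitor-like nuclei. In control, Olig1, Olig2 and Nkx2-2 had 50.0%, 55.6% and 65.1% of their UMIs in the lineage. Astrocyte-like nuclei held 16.5%, 13.7% and 12.2% of them, which was less than their 24.0% of all control UMIs. Myrf had 92.2%, 95.9% and 94.8% of its UMIs in the lineage.

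The immature neuron-like class, a cluster with Kcnj6 and Gpr149 among its leading genes (410, 300 and 511 nuclei), also held precursor factors. It passed 3 of 3 immature neuron markers and 4 of 4 transitional markers, and only 1 of 7 neuron markers. The immature neuron and transitional lists tied, and the order of the lists settled the name, which does not identify these nuclei as neurons. Olig2 was there at 95.6, 118 and 83.6 CPM, close to its OPC-like level, and Sox8 at 215, 211 and 121 CPM. Sox10 was at 144, 267 and 243 CPM, and Myrf had 2, 5 and 4 UMIs. At the finer resolution there was a Kcnj6 cluster (251, 22 and 481 nuclei) and a Gpr149 cluster (213, 360 and 67 nuclei). Together these hold more nuclei than the class does in each library, so they also took in nuclei of other classes. The mixture of Kcnj6 and Gpr149 nuclei thus differed between the libraries.

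Over 34 sums of a class in a library, Olig2 and Sox8 followed each other with a Pearson r of 0.90, and Sox8 and Sox10 with 0.89. These sums share 3 libraries, and the correlations are a description of log2(CPM + 1) profiles. Of 11282 genes, those most like Olig2 were Megf11, an OPC marker (0.91), Sox8 (0.90) and Lhfpl3, also an OPC marker (0.89). Abtb2 was the most alike gene of Sox8 (0.96), Sox10 (0.93) and Nkx2-2 (0.88). Genes alike Myrf included Bfsp2 (0.91) and Enpp6, a marker of newly forming oligodendrocytes (0.87). St18 was nearest to Strn (0.94), Rffl (0.93) and Cdk18 (0.92), and Zfp536 to Tubb4a (0.91), Slc24a2 (0.89) and Tulp4 (0.87). The nearest genes of Tcf7l2 were Dock6 (0.85), Creb3l2 (0.84) and Inppl1 (0.83). Nkx6-2 was nearest to Prr5l (0.80), Klf13 (0.79) and Atp8b1 (0.79), and Olig1 to Abhd17b (0.83), Lrrn1 (0.81) and Olig2 (0.81).

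The ablated libraries were then set against control, first over all nuclei. Genes with at least 100 UMIs in both libraries together were ranked, and a difference was called where the ratio of CPM passed 2-fold in either direction. In the CBP-ablated library 4 of the 10 factors were past 2-fold, all higher, where 6.88% of 11883 genes were called. The median log2 ratio of the 10 factors was 0.78, against 0.06 over all ranked genes. Zfp536 was at 225 CPM in control and 858 CPM in the CBP-ablated library (log2 ratio 1.93, 1.88 to 1.99). Myrf was at 20.5 and 73.0 CPM (1.83, 1.65 to 2.01), St18 at 360 and 1053 CPM (1.55, 1.51 to 1.59) and Nkx6-2 at 3.37 and 8.86 CPM (1.39, 0.92 to 1.89). By class these were the 4 factors highest in oligodendrocyte-like nuclei. The committed-stage factors Tcf7l2 (617 and 1097 CPM, log2 ratio 0.83), Sox10 (183 and 304 CPM, 0.73) and Nkx2-2 (48.1 and 72.6 CPM, 0.59) were higher by less than 2-fold. Sox8 (147 and 155 CPM) had an interval that included 0, as did Olig2 (55.2 and 50.3 CPM), while Olig1 was lower, at 34.6 and 27.1 CPM (-0.35, -0.55 to -0.15). In bulk sums like these, a change in the number of nuclei of a class and a change in RNA per nucleus cannot be told apart.

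In the p300-ablated library none of the 10 factors was past 2-fold, where 2.82% of 12247 genes were called. Their median log2 ratio was 0.09, against -0.03 over all ranked genes. Sox10 was higher (183 and 246 CPM, 0.42) and so were Zfp536 (225 and 281 CPM, 0.32) and Olig2 (55.2 and 65.3 CPM, 0.24). Olig1 (34.6 and 26.8 CPM, -0.37), Myrf (20.5 and 16.3 CPM, -0.33), Tcf7l2 (617 and 493 CPM, -0.32) and Sox8 (147 and 119 CPM, -0.31) were lower. With the astrocyte-like cluster, which only control had, left out, Zfp536 was at -0.06, Sox10 at 0.04 and Olig2 at 0.06, while Olig1 (-0.51), Myrf (-0.71), Tcf7l2 (-0.34) and Sox8 (-0.59) stayed lower. St18 and Nkx2-2, above 0 over all nuclei, were then at -0.30 and -0.09. For the CBP-ablated library leaving this cluster out put Sox10 at 0.34, Sox8 at -0.21 and Olig2 at -0.32. Both comparisons used the same control library.

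Within classes the differences in the CBP-ablated library were mostly smaller. In oligodendrocyte-like nuclei 0 of 10 factors were past 2-fold, where 2.24% of 4907 genes were called, and the median log2 ratio was -0.05. St18, 1.55 higher over all nuclei, was lower in this class (4198 and 3400 CPM, -0.30, -0.36 to -0.25). Zfp536 was at 3355 and 3211 CPM there (-0.06, with the interval just below 0), Myrf at 153 and 170 CPM (0.15, -0.13 to 0.44) and Nkx6-2 at 28.2 and 26.1 CPM (-0.11, -0.79 to 0.61). In committed-like nuclei 0 of the 9 ranked factors were past 2-fold, where 3.1% of 5417 genes were called. Tcf7l2 was higher there (2108 and 3100.5 CPM, 0.56, 0.50 to 0.61), as were Myrf (0.42) and Zfp536 (0.33), and Sox8 was lower (408 and 324 CPM, -0.34, -0.48 to -0.19).

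**Figure D3:**
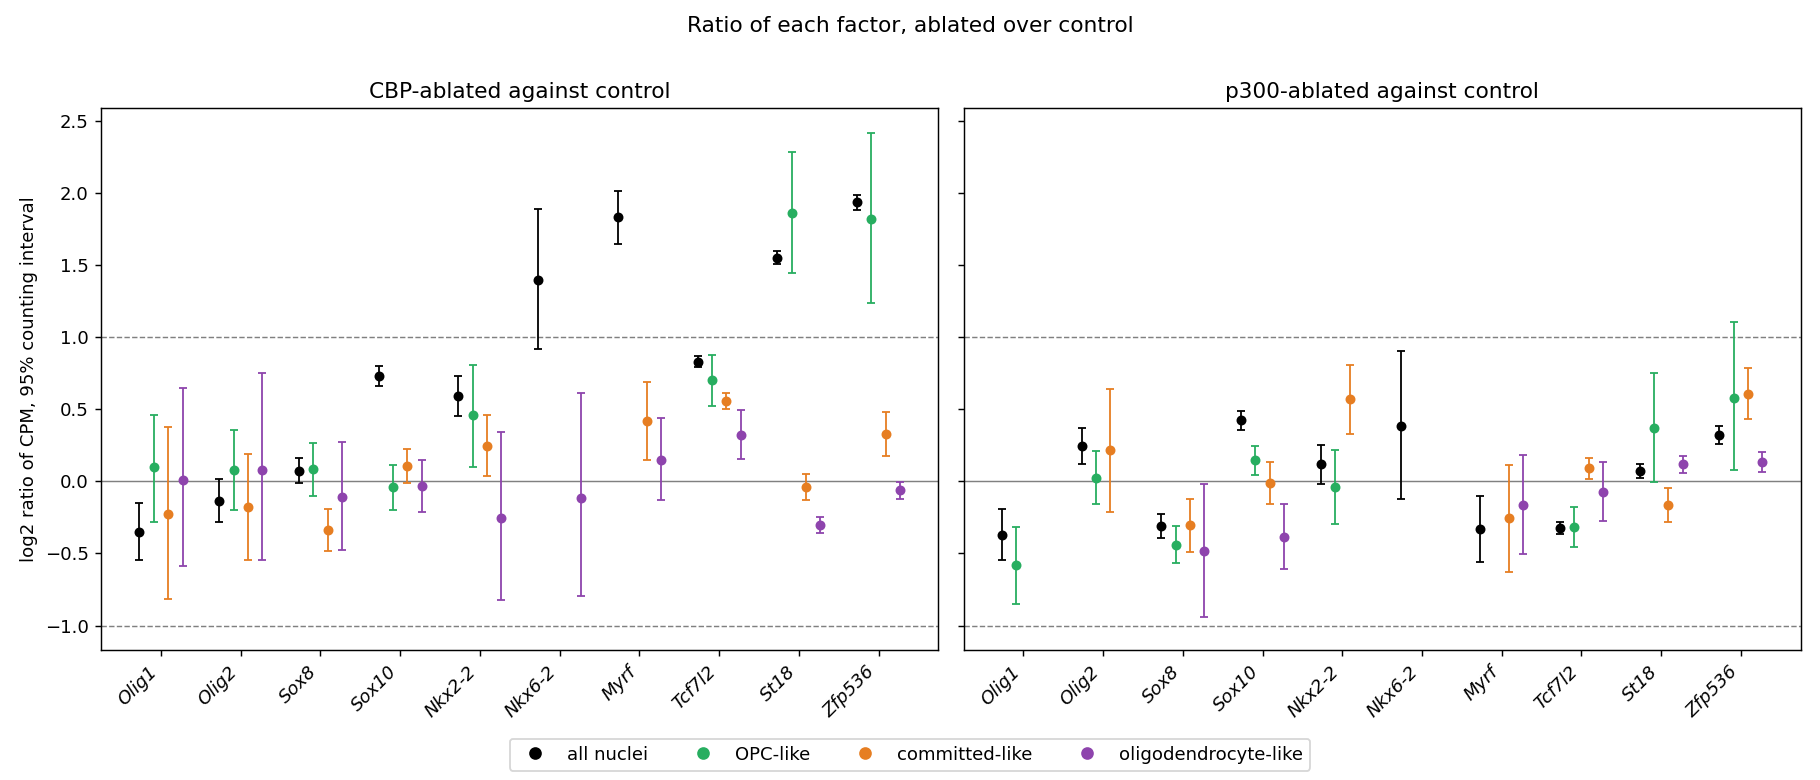
Log2 ratio of CPM of each factor in the CBP-ablated (left) and p300-ablated (right) library over control, in all nuclei (black) and in OPC-like (green), committed-like (orange) and oligodendrocyte-like (purple) nuclei, with 95% counting intervals, for factors with at least 100 UMIs. Dashed lines mark 2-fold. St18 in the CBP-ablated library is at 1.55 over all nuclei, 1.86 in OPC-like and -0.30 in oligodendrocyte-like nuclei.

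The finer clusters separated these differences further. The Tcf7l2 difference of committed-like nuclei was present in the Bmp4 cluster (1375 and 2164 CPM, 0.65, 0.57 to 0.74) and near 0 in the Ddc cluster (4522 and 4423 CPM, -0.03, -0.11 to 0.05), which held a larger part of the committed-like nuclei of the CBP-ablated library. Tcf7l2 was also higher in OPC-like nuclei (192 and 312 CPM, 0.70, 0.52 to 0.88) and in the Aspa cluster (0.60, 0.18 to 1.05), while in the Mobp cluster it was at 960.1 and 966 CPM (0.01, -0.18 to 0.20). By myelin share Tcf7l2 was higher in the 3 ranges below 1% (0.93, 0.64 and 0.23) and lower at 1 to 3% (-0.17, -0.33 to -0.02). Nkx2-2 was higher in the Bmp4 cluster (0.52, 0.30 to 0.75). Sox8, lower in committed-like nuclei as a whole, was at -0.21 (-0.38 to -0.05) in the Bmp4 cluster and at -0.13 (-0.48 to 0.22) in the Ddc cluster. By myelin share the log2 ratios of Sox8 were 0.21, -0.24, -0.08 and -0.06. Zfp536 and Myrf, higher in committed-like nuclei as a whole, had intervals that included 0 in both clusters, with log2 ratios of -0.05 and -0.13 for Zfp536 and 0.24 and 0.01 for Myrf. St18 was lower in the Bmp4 cluster (646 and 429 CPM, -0.59), the Ddc cluster (1956 and 1602 CPM, -0.29), the Mobp cluster (4093 and 2752 CPM, -0.57) and the Aspa cluster (4257 and 3910 CPM, -0.12), with all 4 intervals below 0. By myelin share St18 was higher under 0.1% (74.0 and 126 CPM, 0.77, 0.50 to 1.04) and lower in the ranges 0.1 to 0.3%, 0.3 to 1% and 1 to 3%, with log2 ratios of -0.56, -0.68 and -0.15. Zfp536 was higher under 0.1% (0.60) and at 0.1 to 0.3% (69.5 and 185 CPM, 1.41, 1.02 to 1.82), the latter from 66 control UMIs. It was lower at 0.3 to 1% (-0.34, -0.45 to -0.24) and at -0.04 (-0.11 to 0.03) at 1 to 3%. Its ratio therefore depended on how the nuclei were divided, and the myelin ranges held unequal mixtures of the classes between libraries.

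In the CBP-ablated library 2 of the 8 factors ranked in OPC-like nuclei were past 2-fold, where 1.37% of 5696 genes were called, and the median log2 ratio was 0.28. They were St18 (23.6 and 85.7 CPM, 1.86, 1.44 to 2.28) and Zfp536 (12.5 and 44.3 CPM, 1.82, 1.24 to 2.42), the factors of the last stage, from 83 and 118 UMIs of St18 and 44 and 61 UMIs of Zfp536. Like levels were seen in CBP-ablated nuclei of some classes outside the lineage. St18 was at 79.2, 89.2 and 74.4 CPM in radial glia-like, glial progenitor-like and proliferating-like CBP-ablated nuclei, against 19.8, 24.6 and 12.2 CPM in control. Zfp536 was at 37.3, 33.8 and 40.4 CPM in these classes, against 9.89, 8.19 and 22.4 CPM. These control values rest on 32, 33 and 6 UMIs of St18 and 16, 11 and 11 UMIs of Zfp536. Not every class went this way. In neuron-like and p53 response-like nuclei Zfp536 was lower in the CBP-ablated library than in control, and St18 was not higher. With 5% of the library's summed profile subtracted as free RNA the OPC-like log2 ratio of Zfp536 was 0.10 and that of St18 was 2.55, and with 10% subtracted no UMI of either gene was left there in either library. The 5% subtraction took away nearly all the Zfp536 UMIs in both libraries, so its ratio of 0.10 lies near the floor. The log2 ratio of Tcf7l2 in OPC-like nuclei was 0.64 with 10% subtracted. Both shares are assumed values, the free RNA of these libraries was not measured, and its part in these differences was not tested. The other OPC-like ratios were 0.46 for Nkx2-2 (0.10 to 0.81), and between -0.04 and 0.10 for Olig1, Olig2, Sox8 and Sox10, whose intervals included 0.

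When the classes of the CBP-ablated library outside the astrocyte-like cluster were weighted by the control's shares of UMIs, the ratios of the 4 factors past 2-fold moved toward 0. Zfp536 went from a log2 ratio of 1.55 to 0.10, St18 from 1.18 to -0.03, Myrf from 1.45 to 0.45 and Nkx6-2 from 1.11 to 0.38. Tcf7l2 went from 0.82 to 0.45, and Olig1 from -0.49 to -0.19. Classes were rebuilt clusters, and a shift of stage within a class stays in these values.

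**Figure D4:**
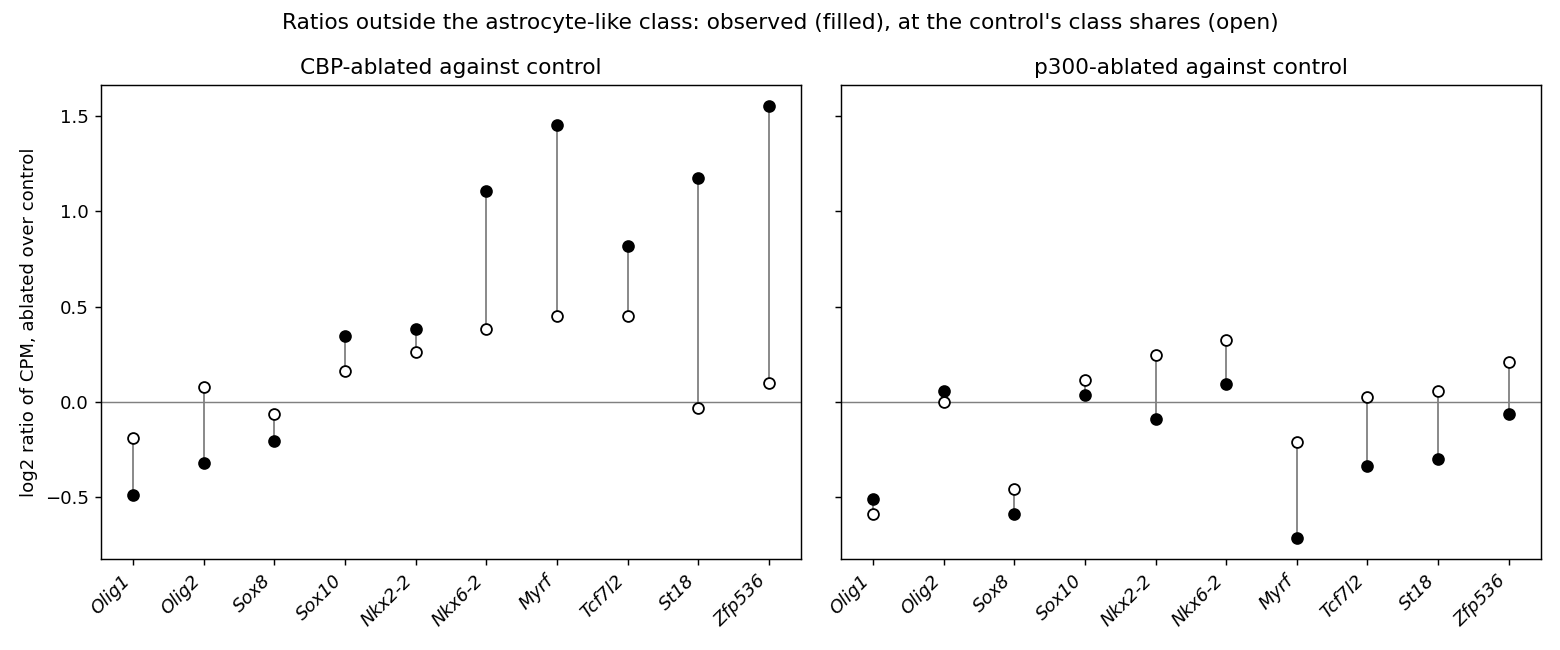
Log2 ratio of CPM over control of each factor outside the astrocyte-like class, as observed (filled points) and with every class weighted by its share of UMIs in the control library (open points), for the CBP-ablated (left) and p300-ablated (right) library. In the CBP-ablated library Zfp536 moves from 1.55 to 0.10 and St18 from 1.18 to -0.03, while in the p300-ablated library Olig1 stays at -0.51 and -0.59.

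Olig1 and Sox8 were the factors lower in OPC-like nuclei of the p300-ablated library that stayed lower at the control's class shares. In OPC-like nuclei 0 of the 8 ranked factors were past 2-fold, where 0.594% of 7909 genes were called. Olig1 was at 59.8 and 39.9 CPM (-0.58, -0.85 to -0.32), Sox8 at 237 and 175 CPM (-0.44, -0.57 to -0.31) and Tcf7l2 at 192 and 154 CPM (-0.32, -0.46 to -0.18), while Olig2 was at 105 and 107 CPM (0.02, -0.16 to 0.21). Sox10 (344 and 380 CPM, 0.15, 0.05 to 0.24) and Zfp536 (12.5 and 18.7 CPM, 0.58, 0.08 to 1.11) were higher, the latter from 44 and 129 UMIs. At the finer resolution the OPC-like clusters were led by Myo5b (604 control and 952 p300-ablated nuclei) and Tmem255b (382 and 750 nuclei). Olig1 had a log2 ratio of -0.32 (-0.68 to 0.05) in the Myo5b cluster and -0.88 (-1.31 to -0.45) in the Tmem255b cluster, and Sox8 had -0.41 and -0.45, both intervals below 0. Sox8 was lower in every class of the lineage, with log2 ratios of -0.31 (-0.49 to -0.12) in committed-like and -0.48 (-0.94 to -0.02) in oligodendrocyte-like nuclei. It was lower also in immature neuron-like (215 and 121 CPM, -0.83, -1.07 to -0.58) and proliferating-like nuclei (205 and 122 CPM, -0.75). The immature neuron-like difference was smaller by finer cluster, where the mixture differed between libraries. It was -0.49 (-0.80 to -0.18) in the Kcnj6 cluster and -0.37 (-0.82 to 0.06) in the Gpr149 cluster. In glial progenitor-like nuclei Sox8 was not lower, from 28 control and 46 p300-ablated UMIs. At the control's class shares Sox8 stayed lower (-0.46) and so did Olig1 (-0.59), while Myrf was at -0.21, Tcf7l2 at 0.03 and St18 at 0.06.

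In committed-like nuclei of the p300-ablated library 0 of the 8 ranked factors were past 2-fold, where 0.726% of 3995 genes were called. Nkx2-2 was at 169 and 251 CPM (0.57, 0.33 to 0.81) and Zfp536 at 305 and 466 CPM (0.61, 0.43 to 0.79). The Nkx2-2 difference was 0.61 (0.36 to 0.85) in the Bmp4 cluster and -1.04 (-2.40 to 0.14) in the Ddc cluster, the latter from 26 and 8 UMIs. By myelin share the Nkx2-2 log2 ratios were -0.15, 0.09, 0.15 and 0.11, with intervals that included 0. The Zfp536 difference was 0.36 in the Bmp4 cluster (168 and 215 CPM) and 0.89 in the Ddc cluster (760.3 and 1414 CPM, 0.66 to 1.13, 44 p300-ablated nuclei). St18 was lower in the Bmp4 cluster (646 and 445 CPM, -0.54, -0.71 to -0.37) and higher in the Ddc cluster (1956 and 2356 CPM, 0.27, 0.11 to 0.43). In oligodendrocyte-like nuclei 0 of the 6 ranked factors were past 2-fold, where 2.03% of 3147 genes were called. Sox10 was at 382 and 293 CPM there (-0.38, -0.61 to -0.16), Zfp536 at 3355 and 3685 CPM (0.14) and St18 at 4198 and 4553 CPM (0.12). Tcf7l2 was at 408 and 388 CPM in the class (-0.07, -0.28 to 0.13) and at 960.1 and 1584 CPM in the Mobp cluster (0.72, 0.49 to 0.95, 34 p300-ablated nuclei). In committed-like nuclei by finer cluster, Tcf7l2 was slightly higher in the Bmp4 cluster (0.13, 0.03 to 0.24) and the Ddc cluster (0.13, 0.02 to 0.24). By myelin share it was lower in all 4 ranges (-0.71, -0.30, -0.14 and -0.28), with intervals below 0. As given above, these ranges mixed the classes unequally between libraries. Zfp536 was lower under 0.1% (-0.97) and higher in the other ranges (1.70, 0.30 and 0.19). At 0.1 to 0.3% it was at 69.5 and 226 CPM (1.30 to 2.12), from the same 66 control UMIs as in the CBP-ablated comparison. St18 was lower under 0.1% (-0.92) and at 0.1 to 0.3% (-0.85), and higher at 1 to 3% (0.26). The low values under 0.1% were not seen in the OPC-like Myo5b and Tmem255b clusters. There the log2 ratios were 0.55 and 0.57 for Zfp536 and 0.30 and 0.54 for St18, with intervals that included 0.

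In immature neuron-like nuclei 1 of the 7 ranked factors was past 2-fold in each comparison, where 7.36% of 3846 genes were called for the CBP-ablated and 1.11% of 4755 genes for the p300-ablated library. It was St18 for the CBP-ablated library (28.8 and 108 CPM, 1.91, 1.38 to 2.48), at a level like that of its OPC-like, radial glia-like and glial progenitor-like nuclei. For the p300-ablated library it was Olig1 (62.5 and 30.4 CPM, -1.04, -1.53 to -0.55). Sox10 was higher in both (0.89 and 0.75), but in the Kcnj6 cluster the CBP-ablated value was 23.7 CPM against 165 CPM in control, from 2 UMIs in 22 nuclei. In the Gpr149 cluster Sox10 was at 157 and 287 CPM in control and the CBP-ablated library (0.87, 0.54 to 1.21).

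Other genes of the same regulatory setting were taken from lists. Of 11 partners and chromatin regulators, all ranked over all nuclei, 1 was higher and 1 lower past 2-fold in the CBP-ablated library, where 6.88% of all ranked genes were called. The higher gene was Zfp488, an oligodendrocyte zinc finger factor (17.3 and 35.5 CPM, 1.04). The gene lower past 2-fold is not named here. Zeb2 was at 0.70 and Zfp24 at -0.47, neither of them past 2-fold. Of the factors that hold precursors back, 0 of the 6 ranked were past 2-fold, with Sox5 at -0.61 and Id2 at -0.52, and of the paralogues of the 10 factors 0 of the 5 ranked were, with Tcf7 at -0.56 and Sox9 at -0.34. Of the 16 myelin genes, 14 were ranked and all 14 were higher past 2-fold, with a median log2 ratio of 2.05, the largest being Mobp (42.8 and 297 CPM, 2.79). In the p300-ablated library, where 2.82% of all ranked genes were called, 0 of the 11, 6, 5 and 13 ranked genes of these lists were past 2-fold, and the myelin genes had a median of 0.10.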

How the data were processed

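Per the labels and the study's methods, the authors made libraries with the 10x Chromium 3' v3 kit, aligned reads to GRCm38 (mm10) with Cell Ranger 3.1 over exons and introns, and deposited the counts of UMIs per gene and nucleus without normalization. The submitters' processing notes also name FastQC 0.11.9 and Seurat 2.3.4. All deposited nuclei were kept, each with at least 500 UMIs. Clustering used Seurat 5.3.0 in R 4.3.3 (1614 variable genes without the 10 factors, 20 principal components, 30 neighbours, resolution 0.6, seed 1). A class needed 60% of its markers, each with a UMI in 10% of nuclei and 2 times the level elsewhere. Sums, Poisson intervals of CPM and binomial intervals of ratios came from Python 3.11.15 (pandas 2.3.3, scipy 1.17.1, numpy 2.4.6), and matplotlib 3.10.9 drew the figures. Doublets were scored with Scrublet in scanpy 1.11.5 at 0.8% per 1000 nuclei and kept, 191 control, 73 CBP-ablated and 173 p300-ablated nuclei, and left out in an alternative; cluster 11, mostly called doublets, stayed unnamed. Scripts were tested on simulated data. Gene positions came from GENCODE M21, which holds all 10 gene identifiers of the files. The floxed genes, summed over exons and introns, do not check the labels. The named genes are the 10 factors, up to 4 genes of each list by size of ratio, and the 3 genes most alike each factor. The factors and lists were chosen with earlier results of these data known. Some genes that these rules select are not reported here.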

Additional observations from a re-analysis of the deposited data

Results flagged for a closer look

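Some factors lay above control in some classes and below it in others under the same ablation, with counting intervals on opposite sides of 0. The difference between the classes was not tested, since each condition has 1 library. In the CBP-ablated library the log2 ratio of St18 was 1.91 in immature neuron-like and -0.30 in oligodendrocyte-like nuclei, and that of Zfp536 was 1.82 in OPC-like and -0.063 in oligodendrocyte-like nuclei. The high values rest on 108 CPM of St18 and 44.3 CPM of Zfp536 in the CBP-ablated nuclei, and radial glia-like nuclei of that library had 79.2 and 37.3 CPM. The values in oligodendrocyte-like nuclei rest on 3400 and 3211 CPM. In the p300-ablated library the log2 ratio of Sox10 was 0.75 in immature neuron-like and -0.38 in oligodendrocyte-like nuclei, that of Tcf7l2 was 0.20 in immature neuron-like and -0.32 in OPC-like nuclei, and that of St18 was 0.12 in oligodendrocyte-like and -0.16 in committed-like nuclei. By finer cluster the Tcf7l2 ratio was 0.0001 (-0.21 to 0.21) in the Kcnj6 cluster and -0.20 (-0.75 to 0.32) in the Gpr149 cluster. Neither cluster was thus higher, and their mixture differed between the libraries.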

How the results depend on the processing

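Each comparison was repeated under up to 16 alternatives: 4 other clusterings, classes by marker score, doublets or shallow nuclei left out, thinning to 1500 UMIs, equal weight per nucleus, centring, a total without myelin genes, 5% or 10% free RNA subtracted, other UMI minimums, and no astrocyte-like cluster. No ratio past 2-fold changed sign, while smaller ratios did, among them 10 of 59 by marker score and 5 of 83 after centring. Of the counts of factors past 2-fold 116 were within 1.5 times the main count and 20 were not. Of the medians 131 stayed between the median lower and the median upper bound of the factors' own intervals, and 5 did not. That span is not an interval of the median. Over all nuclei of the CBP-ablated library the count was 3 when thinned and 4 under the other alternatives run, and the median was 0.72 after centring and 0.60 without the astrocyte-like cluster; for the p300-ablated library that median was -0.20. In the CBP-ablated library the OPC-like count of 2 became 1 with the factors among the variable genes, at resolution 1.2, with 5% subtracted or by marker score, 0 when thinned or with 10% subtracted, and 4 with a minimum of 1 UMI; when thinned neither gene reached 100 UMIs. In OPC-like p300-ablated nuclei the count of 0 became 2 with 5% subtracted and 1 with a minimum of 1 UMI or by marker score. With a minimum of 1 UMI the committed-like counts of 0 became 1 in both libraries, and the committed-like CBP-ablated median was -0.0159 after centring. In immature neuron-like nuclei the CBP-ablated count of 1 became 0 when thinned, with 10% subtracted or by marker score, 2 after centring and 3 with a minimum of 1 UMI, with a median of -0.32 at resolution 1.2. The p300-ablated count of 1 there became 0 at resolution 1.2 or by marker score and 2 with a minimum of 1 UMI. Resolution 0.3 gave no such class. Apart from thinning and the settings just described, the cause of these moves was not tested. No paired analysis was possible because each condition has 1 library and the result comes from no test.

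Depth limits Nkx6-2, with 55 to 113 UMIs a library, and Myrf, St18 and Zfp536 outside the later stages.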
